A study of Mus musculus with 56 samples.

Results

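The 10 smooth muscle contractile genes Acta2, Actg2, Myh11, Mylk, Cnn1, Tagln, Smtn, Lmod1, Des and Synpo2 were followed along the male mouse reproductive tract, from the testis to the vas deferens, in adult and aged mice. They were chosen by name as well known parts of the contractile apparatus, out of 53379 genes in the count table, and all 10 passed the filter on low counts in each fit. The study used 4 C57BL/6 male mice of 3 months and 4 of 21 months and took 7 regions from each, which gave 56 RNA-seq libraries in 14 groups of 4. The sources name no transgene and no treatment, so age and region are the only factors. In order along the tract the regions are the testis, the efferent ductules, the initial segment of the epididymis, its caput, its corpus, its cauda and the vas deferens. Fat and loose connective tissue were trimmed off before RNA was taken. Libraries held between 11125279 and 20561967 counts on genes (median 16384049). Levels are given as CPM (a gene's counts scaled to a common library size, with TMM factors over all 56 libraries), as the mean ± SD of 4 libraries or as the values of replicates 1 to 4 in that order. Unless another test is named, tests are edgeR quasi-likelihood F-tests with p-values adjusted by Benjamini-Hochberg over all genes of the fit, and a gene is called at an adjusted p under 0.05. Each library comes from a whole piece of tissue, so fewer smooth muscle cells and less RNA per cell cannot be told apart.

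Smooth muscle contracts when actin filaments slide along filaments of smooth muscle myosin. Calcium entering the cell activates myosin light chain kinase, which switches the myosin on, and a phosphatase switches it off. The actin filaments are anchored at dense bodies, which desmin links into a network through the cell. In the male tract a thin muscle coat around the epididymal duct moves sperm slowly forward, while the thick coat of the distal duct and the vas deferens expels sperm at emission. Most of these genes are controlled by serum response factor (SRF) with its cofactor myocardin, which bind a short motif called the CArG box.

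The genes fall into 4 roles, with positions on GRCm38 from GENCODE M21. The actins of the thin filament are Acta2 (ENSMUSG00000035783, chromosome 19, 34241090 to 34255590, minus strand), the alpha actin of vascular and other smooth muscle, and Actg2 (ENSMUSG00000059430, chromosome 6, 83512905 to 83536265, minus strand), the gamma actin typical of visceral smooth muscle. The myosin side is represented by Myh11 (ENSMUSG00000018830, chromosome 16, 14194535 to 14291372, minus strand), the smooth muscle myosin heavy chain, and Mylk (ENSMUSG00000022836, chromosome 16, 34745210 to 35002420, plus strand), which encodes myosin light chain kinase. Proteins that bind the actin filament are encoded by Cnn1 (ENSMUSG00000001349, chromosome 9, 22099216 to 22109630, plus strand), calponin, and Tagln (ENSMUSG00000032085, chromosome 9, 45929619 to 45936058, minus strand), transgelin. Smtn (ENSMUSG00000020439, chromosome 11, 3517523 to 3540612, minus strand) encodes smoothelin, which marks fully contractile smooth muscle, and Lmod1 (ENSMUSG00000048096, chromosome 1, 135324807 to 135368065, plus strand) encodes leiomodin, which starts new actin filaments. The anchoring proteins are desmin, from Des (ENSMUSG00000026208, chromosome 1, 75360329 to 75368579, plus strand), and synaptopodin-2, from Synpo2 (ENSMUSG00000050315, chromosome 3, 123076519 to 123236149, minus strand).

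The 2 actin genes are close relatives with different patterns, so it was checked whether their reads can be told apart. Their coding sequences, taken from the GENCODE transcripts Acta2-201 (1134 bases) and Actg2-201 (1131 bases), were identical at 83.82% of 1131 aligned positions, with 183 differences and no run without a difference longer than 29 bases. The last 60 coding bases, stop codon included, show how densely the differences lie. Capitals mark the 11 positions at which the genes differ from each other.
Acta2, coding bases 1075 to 1134: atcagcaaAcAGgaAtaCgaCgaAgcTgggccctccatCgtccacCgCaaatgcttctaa
Actg2, coding bases 1072 to 1131: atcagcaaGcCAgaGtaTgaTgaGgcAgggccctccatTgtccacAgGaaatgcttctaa
No stretch of 150 bases, the length of the reads, from the exons of either gene occurred in the transcripts of another gene. With stretches of 50 bases, 0.326% of those of Acta2 and 0% of those of Actg2 did.

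RefSeq promoter windows of 300 bases (250 before and 50 from the start site on, GRCm38.p6) were at hand for 7 of the 10 genes, and for Actg2, Myh11 and Tagln none was used. The strict CArG motif, in which 6 bases of A or T stand between CC and GG, was searched on both strands and was found in 0 of the 7 windows, against 1.63% of all 32851 windows. With at most 1 G or C allowed among the 6 inner bases, Acta2 was the only 1 of the 7 with a match and held 2 of them, at 84 to 75 and 34 to 25 bases before the start site. At least 1 such match occurred in 9.98% of all windows and 2 or more in 0.822%. The window of Acta2, the gene for which this motif is best known, lies at chr19:34255324-34255623 on the minus strand and is shown 5′ to 3′ with both matches in capitals.
Acta2 promoter: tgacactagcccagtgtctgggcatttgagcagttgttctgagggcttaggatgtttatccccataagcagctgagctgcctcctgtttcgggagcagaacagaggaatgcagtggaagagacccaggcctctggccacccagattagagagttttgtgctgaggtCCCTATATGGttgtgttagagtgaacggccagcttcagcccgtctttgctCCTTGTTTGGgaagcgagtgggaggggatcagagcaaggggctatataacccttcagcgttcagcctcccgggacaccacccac
A match is a description of these letters and not a measurement of binding.

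Some libraries stood apart from their group in ways that touch these genes. Gm42418, a transcript that overlaps ribosomal RNA, took 49.7% of the counts of replicate 2 of the caput at 3 months. In the efferent ductules at 21 months, the summed level of 5 caput genes was 233 and 110.2 CPM in replicates 2 and 3 against 2.11 and 2.91 CPM in replicates 1 and 4. Replicate 3 of the cauda at 3 months held 9500.5 CPM of 10 fibroblast genes, against 2421, 2426 and 2668 CPM in the other libraries. Germ cell genes summed to 15575 to 17446 CPM in the testis at 3 months, and 10.9 to 134 CPM in the vas deferens. Exons of Tagln overlap the antisense gene Gm48529 over 1241 bases and Pcsk7 over 108 bases. Smaller overlaps on the opposite strand are those of Smtn with Gm11946 (714 bases), Mylk with E130310I04Rik (548 bases) and Gm21691 (224 bases), and Des with Gm15179 (220 bases). The strand setting of the counting is not given in the sources used here, so levels of these 4 genes are uncertain to that extent.

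At 3 months the muscle genes marked the end of the tract. All but Actg2 were higher in the vas deferens than in each of the other 6 regions (9 of 10 genes), while 4.32% of the 34475 genes tested passed the same 6 tests. The same 9 genes were lower in the testis than in every other region, which 20.1% of all genes were. In 7 of 10 genes, Acta2, Myh11, Cnn1, Tagln, Lmod1, Des and Synpo2, the cauda was above each of the 5 regions before it, against 3.11% of all genes. At 21 months the counts were again 9, 9 and 7 with the same genes, against 3.75%, 19.8% and 2.81% of the 34552 genes tested. Together the 10 genes took 2.11 to 2.26% of the counts in the vas deferens libraries at 3 months, 0.556 to 0.791% in the cauda and 0.0378 to 0.0405% in the testis. All 7 regions came from the same 4 mice per age, and the tests treat their libraries as independent.

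**Figure D1:**
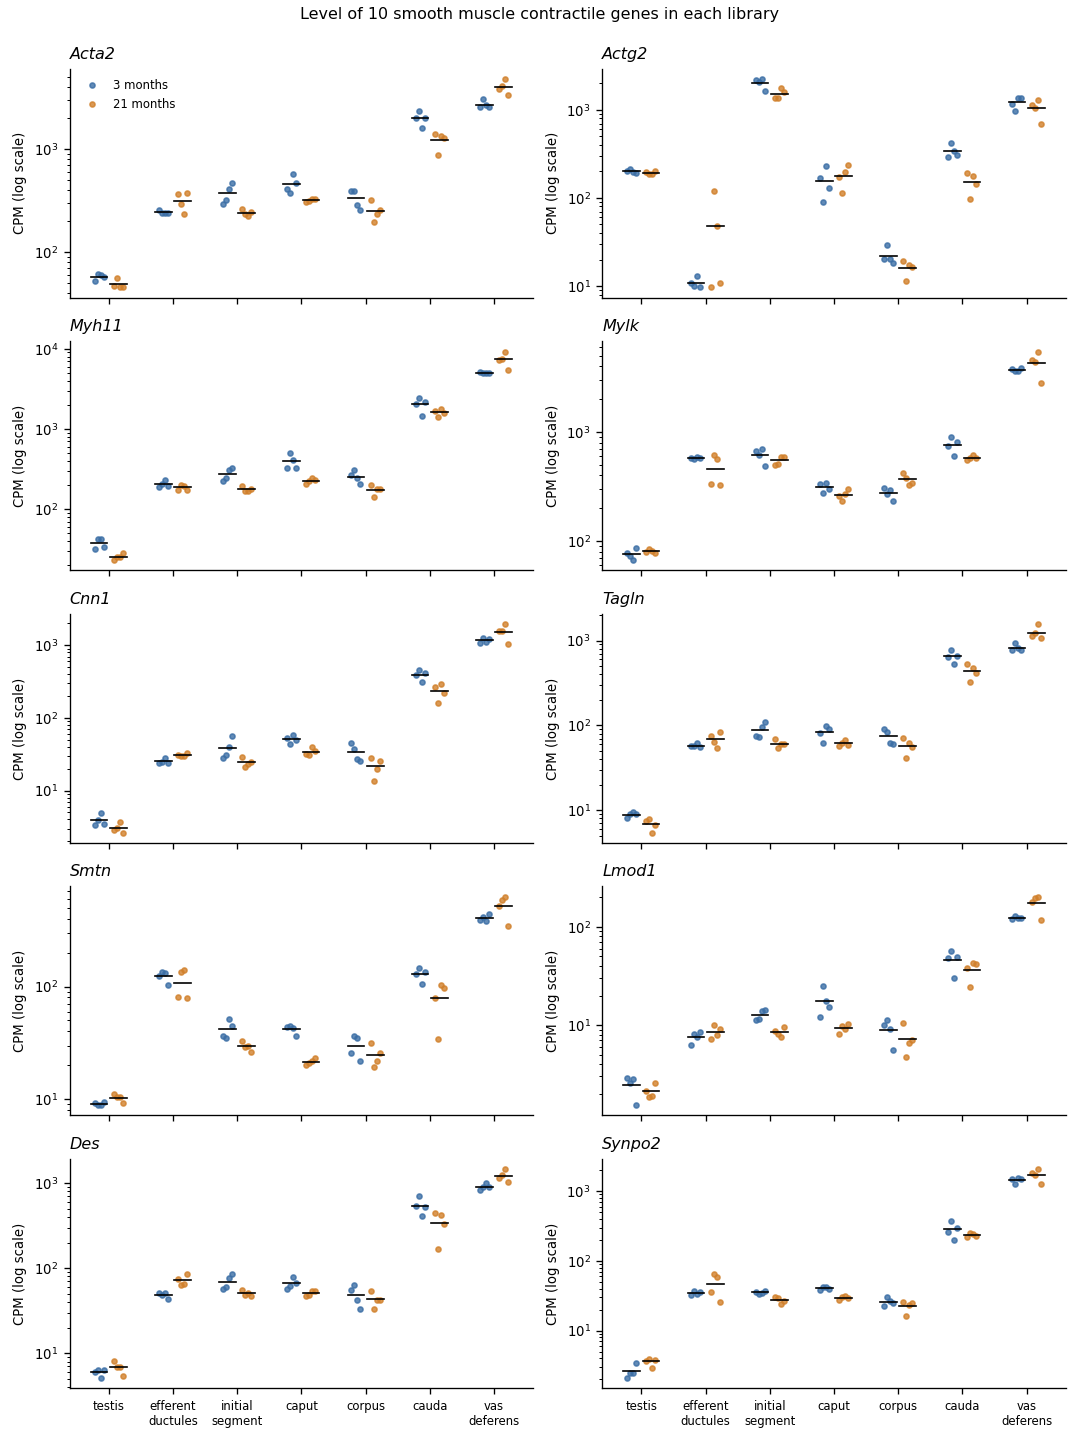
Level of each gene in CPM (log axis) in the 56 libraries, by region from testis to vas deferens; each point is 1 library, blue at 3 months and orange at 21 months, and black lines are means of 4. All but Actg2 reach their highest means in the vas deferens and their lowest in the testis, while Actg2 peaks in the initial segment at 2025 CPM at 3 months.

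Myh11, the motor of the thick filament, climbed in steps toward the end of the tract. Its 4 libraries had 31.8, 42.2, 41.9 and 33.7 CPM in the testis, 2055, 2409, 1436 and 2190.1 CPM in the cauda and 5124, 5055, 5011 and 4969 CPM in the vas deferens at 3 months. No library of one of these regions overlapped with those of another. The vas deferens was 2.77-fold above the cauda (log2 difference 1.47, standard error 0.17, adjusted p = 1.84e-08), and the cauda 4.52-fold above the caput (log2 difference 2.18, standard error 0.17, adjusted p = 9.44e-12). Between these extremes lay the caput with 395 ± 84.2, the initial segment with 276 ± 48.9, the corpus with 253 ± 41.8 and the efferent ductules with 205 ± 18.4 CPM. In this order the caput was above the initial segment, although their libraries overlapped (adjusted p = 0.00383), while the initial segment and corpus (adjusted p = 0.598) and the corpus and efferent ductules (adjusted p = 0.0867) were not separated.

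Mylk, the kinase that activates this motor, had a second area of high level upstream. At 3 months it had 3791, 3585, 3650.0 and 3886 CPM in the vas deferens and 742, 902, 599 and 806 CPM in the cauda. The initial segment had 675, 622, 699.7 and 489 CPM and the efferent ductules 574, 561, 586 and 579.8 CPM, and the libraries of the initial segment overlapped with those of the cauda. The vas deferens was 5.42-fold above the cauda (adjusted p = 2.28e-16), but neither the cauda and initial segment (adjusted p = 0.11) nor the initial segment and efferent ductules (adjusted p = 0.31) were separated by the test. Mylk had 313 ± 30.2 CPM in the caput and 277 ± 32.3 CPM in the corpus, and the difference between efferent ductules and caput passed the test (log2 difference 0.75, standard error 0.11, adjusted p = 1.88e-06). The testis, at 75.9 ± 8.27 CPM, was the lowest region.

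Among the actin binding proteins, Cnn1 and Tagln followed Myh11 while Smtn resembled Mylk. Calponin, Cnn1, rose from 3.32, 3.91, 4.91 and 3.47 CPM in the testis to 385, 454, 313 and 416 CPM in the cauda and 1087, 1275, 1124 and 1213 CPM in the vas deferens at 3 months. The vas deferens mean was 301 times the testis mean. Transgelin, Tagln, had 648, 778, 534 and 661 CPM in the cauda and 777, 929.5, 813 and 772 CPM in the vas deferens. This was the smallest step between these regions among the 9 genes, with 1 library of the cauda above 2 libraries of the vas deferens (log2 difference 0.48, standard error 0.14, adjusted p = 0.00807). Smoothelin, Smtn, had 129.8, 147, 106 and 136 CPM in the cauda and 124, 134, 132 and 104 CPM in the efferent ductules, and these overlapping groups were not separated (log2 difference 0.04, standard error 0.13, adjusted p = 0.863). Yet both were above the initial segment, at 41.8 ± 7.55 CPM, and below the vas deferens, at 406 ± 24.9 CPM. Leiomodin, Lmod1, had 122, 129, 123 and 124 CPM in the vas deferens, 48.3, 57.4, 30.1 and 49.0 CPM in the cauda and 2.86, 2.55, 2.84 and 1.53 CPM in the testis.

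The anchoring proteins differed in the size of the last step, from the cauda to the vas deferens. Synaptopodin-2, Synpo2, had 2.12, 2.50, 2.45 and 3.47 CPM in the testis and 1503, 1259, 1520.4 and 1492 CPM in the vas deferens at 3 months, a ratio of means of 548, the largest of the 10 genes. Its step from the cauda, at 262, 372, 199 and 299 CPM, to the vas deferens was 5.66-fold (log2 difference 2.50, standard error 0.14, adjusted p = 4.77e-15). From the efferent ductules to the corpus its means stayed between 26.0 and 40.3 CPM. Synpo2 then rose to 283 ± 72.4 CPM in the cauda. Desmin, Des, also stepped up into the cauda, but its step at the end was smaller than that of Synpo2. It had 540.4, 702, 414 and 519 CPM in the cauda and 831, 890.5, 989.9 and 892 CPM in the vas deferens, a 1.84-fold difference (adjusted p = 4.13e-05), while the corpus had 55.3, 62.8, 42.8 and 33.2 CPM. The alpha actin Acta2 shared this course, with 389, 391, 282 and 257 CPM in the corpus, 2009, 2332, 1599.8 and 2005 CPM in the cauda and 2522, 3028, 2639 and 2551 CPM in the vas deferens. For Acta2 the last step was 1.497-fold (log2 difference 0.58, standard error 0.15, adjusted p = 0.00265), and the cauda was 3.94-fold above the caput. The caput and initial segment (adjusted p = 0.0723) and the initial segment and corpus (adjusted p = 0.413) were not separated for this gene.

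Actg2, the gamma actin, followed another order of regions than the other 9 genes. At 3 months it was highest in the initial segment, with 2164, 2048, 2229 and 1657 CPM, and the vas deferens came second with 1169, 966, 1364 and 1359.5 CPM. These groups did not overlap, and their difference was called (log2 difference 0.65, standard error 0.17, adjusted p = 0.00231). The region just before the initial segment, the efferent ductules, had 10.8, 10.02, 12.9 and 9.63 CPM, and the region just after it, the caput, 167, 89.5, 231 and 129 CPM. The level thus changed 193-fold across the first border (log2 difference 7.59, standard error 0.23, adjusted p = 2.47e-21) and 12.4-fold across the second (log2 difference 3.63, standard error 0.19, adjusted p = 3.08e-15). Of all genes, 19.7% and 12.8% were called higher in the initial segment in these comparisons, which were singled out with the pattern of this gene known. Farther on, Actg2 was low in the corpus at 22.1 ± 4.92 CPM and returned in the cauda at 342 ± 57.7 CPM. In the testis it had 203, 215, 198 and 193 CPM, above the efferent ductules, caput and corpus in mean. Only the testis and caput were neighbours in its order that did not differ (adjusted p = 0.245).

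At 21 months Actg2 kept its place in the initial segment, with 1381, 1379, 1751 and 1581 CPM, and in the vas deferens, with 1123, 1062, 1302 and 693 CPM, although this difference was no longer called (adjusted p = 0.234). The initial segment was again above the efferent ductules (log2 difference 5.12, standard error 0.50, adjusted p = 5.09e-10) and the caput (log2 difference 3.19, standard error 0.45, adjusted p = 1.7e-06), against 21.1% and 14.8% of all genes. The efferent ductules split into 9.65 and 10.9 CPM in replicates 1 and 4 and 121 and 48.2 CPM in replicates 2 and 3, the libraries with the caput genes. Initial segment genes summed to 787, 1361, 878 and 915 CPM in aged replicates 1 to 4 there, against 574 to 673 CPM at 3 months. The cause of the split of Actg2 was not tested. Without replicates 2 and 3 the log2 difference between the initial segment and efferent ductules was 7.29 (adjusted p = 3.25e-15).

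The balance of the 2 actins was expressed as the share of Actg2 in the sum of both, each as counts per kilobase of exon in the same library, a measure that does not depend on scaling between libraries and was chosen after the levels were seen. At 3 months the shares were 84.5, 83.3, 82.5 and 82.7% in the testis and 91.3, 90.0, 88.5 and 83.4% in the initial segment. They were 5.62, 5.65, 7.06 and 5.39% in the efferent ductules and 6.92, 9.59, 9.22 and 9.14% in the corpus, so the gamma actin made up most of the pair in the first 2 regions and little of it in these. In the vas deferens the share was 39.5, 31.0, 42.2 and 42.9% at 3 months and 29.5, 26.8, 27.9 and 22.7% at 21 months, without overlap. The cauda also had lower shares at 21 months, 16.5, 13.4, 15.6 and 13.6% against 17.2, 20.4, 23.2 and 17.8%. The exact two-sided permutation test of 4 against 4 libraries gave p = 0.0286 in both regions, the smallest it can give, and the adjusted p over the 7 regions was 0.1. In the caput the mean moved the other way, 31.7 ± 5.72% at 3 months and 43.6 ± 6.89% at 21 months (exact permutation p = 0.0857, adjusted p = 0.2), and none of the 7 regions passed after adjustment.

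**Figure D2:**
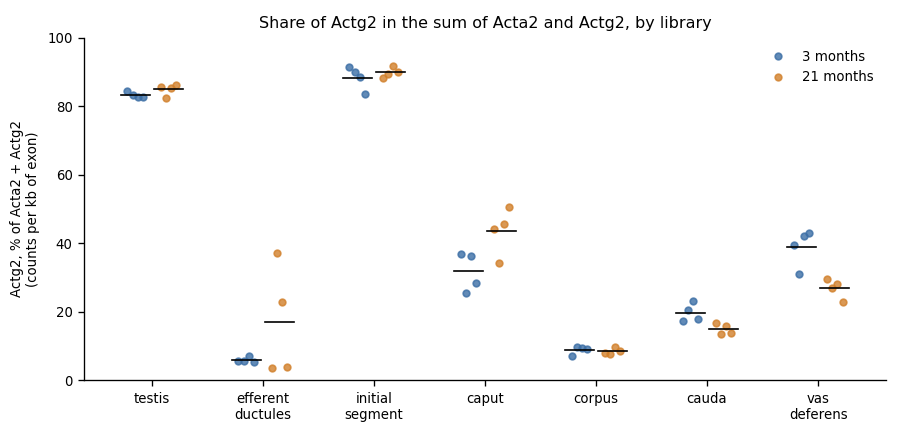
Actg2 as a percentage of Acta2 plus Actg2, both in counts per kilobase of exon, for each of the 56 libraries by region (blue, 3 months; orange, 21 months; black lines, means of 4). The testis and initial segment lie above 82%, the efferent ductules at 3 months and the corpus at both ages under 10%, and the vas deferens libraries are lower at 21 than at 3 months.

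Levels of different genes were compared only per length, as mean CPM per kilobase of exon. In the vas deferens at 3 months the order was Acta2 (1223), Actg2 (780.2), Myh11 (663), Cnn1 (429), Tagln (414), Mylk (331), Des (240.0), Synpo2 (110.3), Smtn (92.6) and Lmod1 (31.5 CPM per kilobase). Acta2, Actg2, Myh11, Cnn1 and Tagln thus came before the kinase and the anchors, while the actin binding Smtn and Lmod1 came last. In the cauda Acta2 (905) was followed by Tagln (329.5), Myh11 (266) and Actg2 (219.7 CPM per kilobase). The testis kept a single high member, Actg2 (129.9 CPM per kilobase), with Acta2 (26.1) second and the other 8 genes at 0.201 to 6.74 CPM per kilobase.

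How alike the genes were along the tract was described by Pearson's r between the 14 group means of log2(CPM + 1), which share libraries and depth and are given without a p. Among the 36 pairs without Actg2, r ran from 0.877 to 0.997 with a median of 0.979. The 9 pairs with Actg2 had r between 0.215 and 0.452. The 5 genes outside the 10 most like Myh11, among 18226 genes with at least 5 CPM in at least 1 group, were Tpm2 (r = 0.997), Csrp1 (0.990), Mrvi1 (0.985), Stum (0.984) and Myl9 (0.984). For Actg2 they were Man1a2 (r = 0.941), Ankrd22 (0.935), B3galt1 (0.922), Tuba1c (0.907) and Ppfibp2 (0.886), none of which is on the lists of muscle genes used here.

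Other genes of the pathway were taken from 4 lists, and those named here were picked after their levels were seen. Of 20 partners in the filament and dense body, 14 were higher in the vas deferens than in every other region at 3 months, among them Tpm2, a tropomyosin, and Myl9, a myosin light chain. Tpm2 went from 269.7 ± 49.7 CPM in the cauda to 585 ± 21.4 CPM in the vas deferens, and Myl9 from 446 ± 67.2 to 537 ± 30.3 CPM. Of 19 genes of calcium handling and relaxation 11 did so, of 11 receptors that drive contraction 5, and of 7 transcriptional regulators 1, against 4.32% of all genes. That regulator was Myocd, the gene of myocardin, with 1.89, 1.63, 1.36 and 2.59 CPM in the testis, 40.8, 47.3, 31.2 and 41.8 CPM in the cauda and 171, 144, 158 and 163 CPM in the vas deferens. Its partner Srf varied little, from 35.0 ± 4.17 CPM in the testis to 50.3 ± 2.67 CPM in the vas deferens. The receptors were Adra1a, Adra1d, P2rx1, Chrm3 and Ednra, which answer noradrenaline, ATP, acetylcholine and endothelin. P2rx1, the purinergic channel of the vas deferens, had 319, 284, 348 and 361 CPM there and 84.8 ± 18.4 CPM in the cauda, and means of 0.0562 to 1.69 CPM in the 5 other regions. Oxtr, the oxytocin receptor, was instead at 123, 160.3, 124 and 156 CPM in the initial segment and 1.75, 1.0005, 0.940 and 1.22 CPM in the vas deferens.

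Age was compared within each region, 4 libraries at 21 months against 4 at 3 months, with one fit for each region. Over the 70 tests of 10 genes in 7 regions, 8 were called higher and 12 lower at 21 months. Higher calls lay in the vas deferens (5), efferent ductules (2) and corpus (1), and lower calls in the caput (8), initial segment (2), corpus (1) and testis (1). The log2 differences use the scaling of each region's own 8 libraries, while the printed CPM use that of all 56. The gap between the fitted difference and the ratio of printed means reached 0.14 on the log2 scale in the initial segment and 0.0840 for the caput, the next largest.

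**Figure D3:**
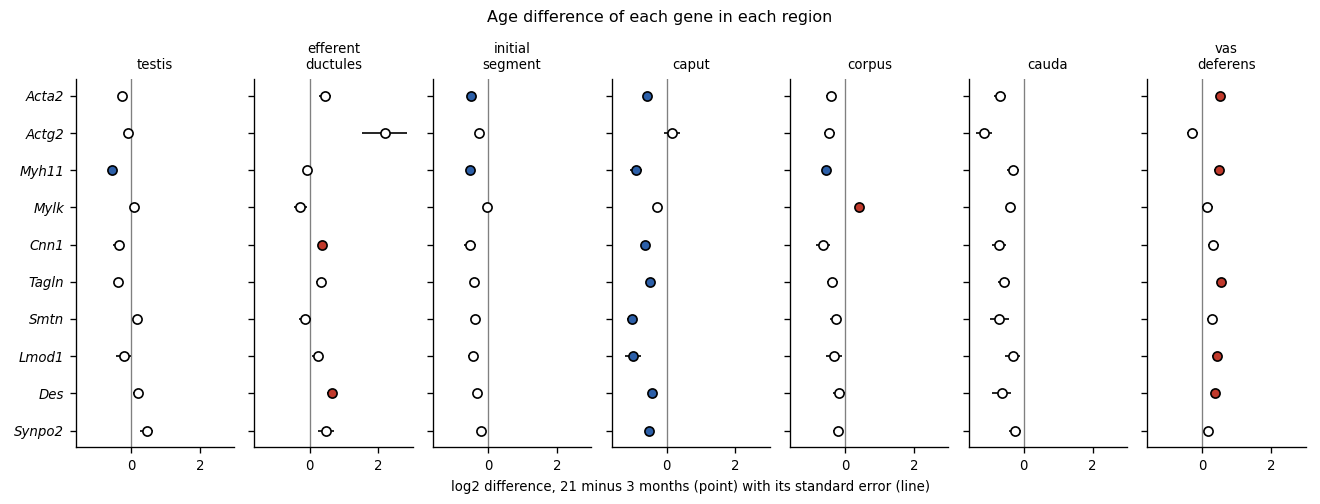
Log2 difference in level between 21 and 3 months (x axis) for each gene (y axis) in the 7 regions, with its standard error as a line; filled points were called (red, higher; blue, lower at 21 months) and open points were not. The caput has 8 blue points, the vas deferens 5 red ones, and all 10 open points of the cauda lie left of 0.

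In the vas deferens of aged mice Acta2, Myh11, Tagln, Lmod1 and Des rose, 5 of 10 genes, against 11.4% of the 25216 genes tested, and none was called lower (8.47% of all genes, and 0 of 10 also by DESeq2 and at an unadjusted p under 0.05). Acta2 had 2522, 3028, 2639 and 2551 CPM at 3 months and 3784, 4081, 4740.3 and 3326 CPM at 21 months, without overlap (log2 difference 0.50, standard error 0.11, adjusted p = 0.0103). Tagln had 1142, 1218, 1556 and 1060.2 CPM in aged mice, each above the highest young library (log2 difference 0.53, standard error 0.11, adjusted p = 0.00702). For Myh11 the young libraries lay close together and the aged ones were 7336, 7521, 9184 and 5363 CPM, all above them (log2 difference 0.48, standard error 0.14, adjusted p = 0.0331). The median log2 difference of the 10 genes was 0.35, against 0.0178 over all genes. Fewer of the 10 were called with library size alone, in one fit of all libraries and with the replicate block. None was called higher at an unadjusted p under 0.05 with a 1.5-fold change. Des (log2 difference 0.37, standard error 0.10, adjusted p = 0.0231) and Lmod1 (log2 difference 0.42, standard error 0.13, adjusted p = 0.0485) rose less. The kinase Mylk (4613, 4376, 5435 and 2823 CPM at 21 months, log2 difference 0.14, standard error 0.16, adjusted p = 0.577) and Synpo2 (log2 difference 0.17, standard error 0.13, adjusted p = 0.391) were not called, and Actg2 was the only gene with a negative difference (log2 difference -0.29, standard error 0.17, adjusted p = 0.273).

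Replicate 4 of the aged vas deferens was the lowest of its group for all 10 genes, and for Actg2, Mylk, Cnn1, Smtn and Lmod1 it lay below every young library. Without it, 9 of 10 genes were called higher, all but Actg2, where 12.1% of 24677 genes were called higher and 9.39% lower. Examples are Cnn1 (log2 difference 0.46, standard error 0.08, adjusted p = 0.00259) and Mylk (log2 difference 0.29, standard error 0.08, adjusted p = 0.0274). Replicate 4 was singled out with its low levels of these same genes known. Leaving it out raises the aged mean and narrows the spread by construction, so that count supports no call. The same library held 10358 CPM of 5 vas deferens genes against 17336 to 18346 CPM in the other aged and 19987 to 22618 CPM in the young libraries, so that all aged libraries lay below all young ones. It held 2742 CPM of 5 corpus genes against 916 to 1580.2 CPM in the other aged and 590.5 to 746 CPM in the young libraries. On the vas deferens list Svs2, a secretory gene of the seminal vesicle, went from 0.582, 1.13, 1.58 and 0.487 CPM in young to 403, 1641, 708 and 8.39 CPM in aged mice (log2 difference 9.44, adjusted p = 0.0016), and Pate4 rose as well (5.28, adjusted p = 0.00719). Leaving out another library lowered the count, to 2 without 3-month replicate 1, 2 or 4 or 21-month replicate 3, and to 3 without 3-month replicate 3 or 21-month replicate 1 or 2. The markers of other cells moved as well. Replicate 4 had 75.0 CPM of 10 T cell genes against 26.1 to 42.4 CPM in the other aged and 6.87 to 11.1 CPM in the young libraries, and all 10 T cell genes rose with age. Fibroblast genes, 10 in all, summed to 2308 to 2757 CPM at 3 and 1113 to 1624 CPM at 21 months, with 7 called lower and 1 higher. Epithelial genes summed to 1107 to 1295 CPM at 3 and 1316 to 1702 CPM at 21 months, with 3 called higher and 2 lower. Of 10 macrophage genes 4 were called higher and 0 lower (median log2 difference 0.42). Genes of skeletal muscle, 20 in all, summed to 362 to 475 CPM at 3 and 223 to 536 CPM at 21 months, with 6 called higher. Their part in the result was not tested.

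The caput changed in the opposite direction. All members but Actg2 and Mylk were called lower, 8 of 10 genes, against 5.05% of the 25322 genes tested, and none was called higher (3.09% of all genes, and 0 of 10 also by DESeq2 and at an unadjusted p under 0.05). Smoothelin had the largest change, from 44.1, 44.4, 42.5 and 36.1 CPM to 20.1, 20.8, 22.0 and 23.3 CPM, without overlap (log2 difference -1.02, standard error 0.12, adjusted p = 0.000748). Leiomodin went from 12.1, 25.2, 17.7 and 15.1 to 8.07, 9.75, 9.17 and 10.2 CPM (log2 difference -0.98, standard error 0.23, adjusted p = 0.0233). For Myh11 the libraries had 329.7, 506, 415 and 329 CPM at 3 and 203, 227, 244 and 229 CPM at 21 months (log2 difference -0.89, standard error 0.17, adjusted p = 0.00985). The aged libraries lay below all young ones for these 3 genes and for Acta2, Cnn1, Des and Synpo2, while those of Tagln overlapped. The share of all genes without overlap is not given here. Cnn1 (log2 difference -0.64, standard error 0.11, adjusted p = 0.00497), Acta2 (log2 difference -0.57, standard error 0.12, adjusted p = 0.0154) and Synpo2 (log2 difference -0.51, standard error 0.11, adjusted p = 0.0173) fell by less, as did Tagln and Des (log2 differences -0.49 and -0.44). Actg2 had 167, 89.5, 231 and 129 CPM at 3 and 171, 115, 196 and 234 CPM at 21 months (log2 difference 0.17, standard error 0.23, adjusted p = 0.708). Mylk was lower without a call (log2 difference -0.29, standard error 0.10, adjusted p = 0.0963). DESeq2 called 9 of the 10 genes lower, where it called 1712 of 25322 genes lower.

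The median log2 difference of the 10 genes in the caput was -0.54, against -0.0146 over all genes. Without 3-month replicate 2, the library with the high share of Gm42418, 7 of 10 genes were called lower, against 3.63% of all genes, and the difference of Myh11 was -0.66 (adjusted p = 0.00865). With library size alone, which moved the median of all genes to 0.19, none of the 10 was called and their median was -0.34, while size factors of DESeq2 in edgeR gave the same count of 8. Without 3-month replicate 3 the count was 5, and without any single aged library it was 3 or 4. Fibroblast genes summed to 764 to 1625 CPM at 3 and 519.5 to 590.2 CPM at 21 months (5 of 10 called lower) and epithelial genes to 1253 to 1574 and 1482 to 1589.8 CPM (0 of 10 called by edgeR). Of the epithelial genes DESeq2 called 1 higher and 0 lower, and 1 was higher and 1 lower at an unadjusted p under 0.05. T cell genes summed to 4.47 to 6.32 and 9.99 to 17.1 CPM (3 of 10 called higher), macrophage genes to 133 to 144 and 159 to 187 CPM (2 of 10 called higher) and adipocyte genes to 51.3 to 92.0 and 35.7 to 53.5 CPM (3 of 10 called lower). Genes of skeletal muscle summed to 20.7 to 25.4 and 13.1 to 15.6 CPM, without overlap, and 2 of the 18 tested, Myh1 and Tnnt1, were called lower. Their part in the result was not tested.

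In the initial segment all 10 log2 differences were below 0, with a median of -0.39 against -0.0114 over all genes, but only Acta2 and Myh11 were called (2 of 10, against 3.01% of 24944 genes lower and 3.35% higher). Acta2 had 289, 322, 410.0 and 464 CPM at 3 and 263, 232, 224 and 246 CPM at 21 months (log2 difference -0.49, standard error 0.13, adjusted p = 0.0344). Myh11 had 226, 244, 304 and 329 and 196, 166, 166 and 176 CPM (log2 difference -0.51, standard error 0.11, adjusted p = 0.014). The aged libraries lay below all young ones for 7 of 10 genes on the scale of the printed CPM. That scale puts the age differences of the 10 genes in this region lower than the fit, by a median of 0.135 on the log2 scale. The share of all genes without overlap is not given here. Actg2, which is highest in this region, did not pass (log2 difference -0.27, standard error 0.10, adjusted p = 0.156), and neither did Mylk, the gene with the smallest difference (log2 difference -0.04, standard error 0.10, adjusted p = 0.911). None was called higher (0 of 10 also by DESeq2 and at an unadjusted p under 0.05), while 9 were lower at an unadjusted p under 0.05. The share of all genes lower at an unadjusted p is not given here. The count was 0 without 3-month replicate 3 or 21-month replicate 2 or 4, 1 without 21-month replicate 3 and 4 without 3-month replicate 2. Fibroblast genes summed to 1109.7 to 1729.8 CPM at 3 and 727 to 905 CPM at 21 months (6 of 10 called lower), and germ cell genes to 49.5 to 163 and 13.8 to 37.2 CPM (10 of 10 called lower). T cell genes summed to 5.87 to 6.998 and 11.4 to 14.7 CPM (6 of 10 called higher), and macrophage genes to 215 to 227 and 236 to 303 CPM (3 of 10 called higher). Epithelial genes summed to 1566 to 1658 and 1259.9 to 1465 CPM and genes of skeletal muscle to 10.1 to 14.3 and 6.91 to 9.16 CPM, both without overlap, and edgeR called 0 of either list (4 and 2 lower and 0 higher at an unadjusted p under 0.05, and by DESeq2 1 and 0 lower). Their part in the result was not tested.

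The corpus was divided between Myh11, which fell from 263, 304, 241 and 204 to 198, 142, 176 and 177 CPM (log2 difference -0.56, standard error 0.12, adjusted p = 0.0155), and Mylk, which rose from 308, 269, 296 and 235 to 419, 381, 328 and 344 CPM (log2 difference 0.40, standard error 0.10, adjusted p = 0.0433). Neither gene's libraries overlapped between the ages. In this region 1.5% of the 24886 genes were called higher and 1.47% lower. The other 8 genes had log2 differences of -0.65 (Cnn1) to -0.19 (Des), and none of them was called by edgeR. DESeq2 called 2 of the 10 genes lower and 1 higher, where it called 573 and 632 of 24886 genes. At an unadjusted p under 0.05, 5 of the 10 were lower and 1 higher. The edgeR calls of Mylk and Myh11 did not hold each time a single library was left out. Mylk was not called without 3-month replicate 2, 3 or 4 or without any aged library, and Myh11 not without 3-month replicate 2 or 21-month replicate 2 or 4, which left 0 higher or 0 lower genes. Without 3-month replicate 4 the log2 difference of Mylk was 0.35 and that of Myh11, still called, -0.63. Fibroblast genes summed to 1601 to 3205 CPM at 3 and 756 to 964 CPM at 21 months, with 9 of 10 called lower. Adipocyte genes summed to 105 to 399 and 88.7 to 146 CPM (3 of 10 called lower) and T cell genes to 10.7 to 14.2 and 21.2 to 23.8 CPM (1 of 10 called higher). Their part in the result was not tested.

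In the cauda the median difference was -0.61 against 0.00284 over all genes and all 10 differences were below 0, yet none of the 10 genes was called by edgeR in the fit of this region. One edgeR fit of all 56 libraries called 6 of them lower, and the fit of this region without a filter 1. At an unadjusted p under 0.05, 7 genes were lower and 0 higher, and DESeq2 called 3 lower, Acta2, Actg2 and Cnn1, and 0 higher, against 1.17% of all genes lower. Few genes of any kind were called by edgeR in the fit of this region, 0.07% of 25730 higher and 0.0583% lower. The share of all genes is not given here for the unadjusted p, the fit without a filter or the fit of 56 libraries. Actg2 came nearest, with 295, 423, 342 and 308 CPM at 3 and 194, 96.6, 177 and 143 CPM at 21 months, without overlap (log2 difference -1.16, standard error 0.22, adjusted p = 0.0864). Acta2 had 2009, 2332, 1599.8 and 2005 and 1379.9, 879, 1345 and 1276 CPM, also without overlap (log2 difference -0.69, standard error 0.18, adjusted p = 0.174), and the same held for Cnn1 and Smtn. Desmin had 540.4, 702, 414 and 519 CPM in young and 449.5, 169, 423 and 332 CPM in aged mice, where replicate 2 lay far below the others (log2 difference -0.65, standard error 0.28, adjusted p = 0.453).

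Individual libraries widened the spread in the cauda. Replicate 2 at 21 months was the lowest aged library for all genes but Mylk and Synpo2, and replicate 3 at 3 months was the lowest young library for all but Actg2. The former had 1122 CPM of 10 epithelial genes against 1662 to 1716 CPM in the other aged libraries, and the latter 1639.8 CPM of 10 macrophage genes against 361 to 379 CPM. A fit without both, added after these values were seen, called 9 of 10 genes lower, all but Lmod1, and 2.69% of 24558 genes were called lower and 2.06% higher. Both were picked with their low levels of these same genes known, which narrows the spread by construction, so that count supports no call. Leaving out either one alone, or any other single library, called 0 lower. Replicates 1 and 2 at 3 months held 37.8 and 30.5 CPM of Myh1, a myosin of fast skeletal muscle, against 1.64 and 2.10 CPM in replicates 3 and 4, and without these 2 libraries 0 of 24776 genes of any kind were called. Summed levels of several other marker lists were also lower in the aged cauda, without overlap between the ages. Fibroblast genes summed to 2421 to 9500.5 CPM at 3 and 1159 to 1342 CPM at 21 months (median log2 difference -1.53), and 20 genes of skeletal muscle to 146 to 299.8 and 55.8 to 103 CPM (-1.98). Adipocyte genes summed to 86.9 to 673 and 40.8 to 75.1 CPM. Of these 3 lists edgeR called 0 genes. Of the fibroblast and skeletal muscle genes, DESeq2 called 3 of 10 and 10 of 20 lower, and 8 and 19 were lower at an unadjusted p under 0.05. Their part in the result was not tested.

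**Figure D4:**
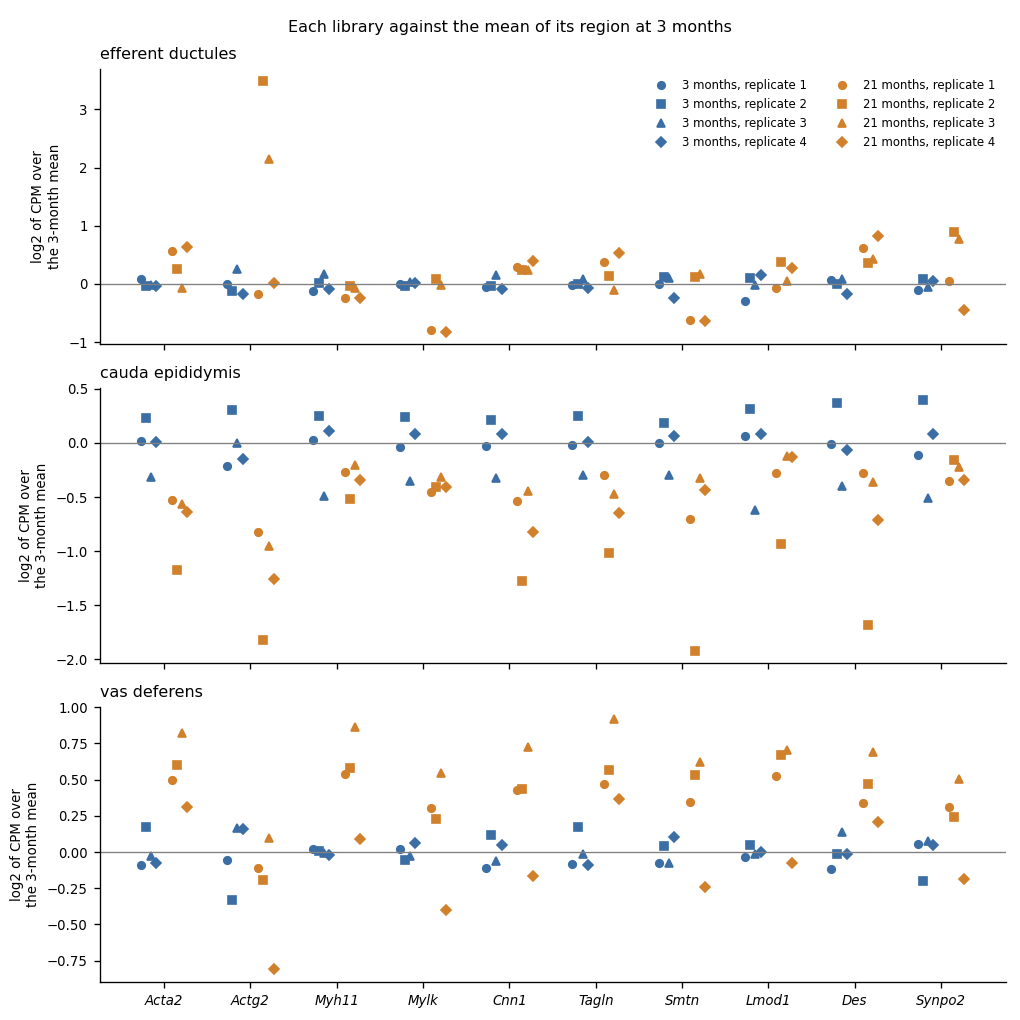
Log2 of each library's CPM over the 3-month mean of its region (y axis) for the 10 genes (x axis) in the efferent ductules, cauda and vas deferens; blue is 3 and orange 21 months, and the marker shape gives the replicate. Replicate 4 is the lowest aged library of the vas deferens for every gene, replicate 2 of the cauda for most, and aged replicates 2 and 3 of the efferent ductules separate from 1 and 4 for every gene but Lmod1.

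In the efferent ductules Cnn1 and Des were called higher at 21 months, 2 of 10 genes, against 4% of the 25944 genes tested, and none was called lower (2.98% of all genes, and 0 of 10 also by DESeq2 and at an unadjusted p under 0.05). Desmin had 51.0, 48.8, 51.5 and 43.1 CPM at 3 and 74.6, 62.7, 65.7 and 85.8 CPM at 21 months, without overlap (log2 difference 0.65, standard error 0.13, adjusted p = 0.0183). Cnn1 had 24.3, 24.6, 28.2 and 23.8 and 31.1, 29.9, 30.0 and 33.0 CPM (log2 difference 0.38, standard error 0.09, adjusted p = 0.0393). For both genes replicates 2 and 3 were the lower aged pair. The aged libraries disagreed more for some other members. Mylk had 331, 614, 566 and 326 CPM and Smtn 80.5, 134, 139.5 and 79.1 CPM, so that replicates 2 and 3 were near the young libraries and replicates 1 and 4 far below them. Actg2, at 9.65, 121, 48.2 and 10.9 CPM, was high in the same replicates 2 and 3 and was not called (log2 difference 2.18, standard error 0.65, adjusted p = 0.0683).

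Replicates 2 and 3 of the aged efferent ductules are those with transcripts of the caput list. Initial segment genes summed to 787, 1361, 878 and 915 CPM in aged replicates 1 to 4, against 574 to 673 CPM in young libraries. Of that list 3 of 5 were called higher, against 4% of all genes. Cauda genes summed to 121, 729, 359 and 177 CPM, against 80.6 to 108 CPM in young libraries, with 1 of 5 called higher. A fit without replicates 2 and 3, added after these values were seen, called Acta2, Cnn1, Tagln and Des higher and Mylk and Smtn lower, where 13.4% of 24912 genes were called higher and 13.7% lower. In it the log2 difference of Acta2 was 0.74 (adjusted p = 8.38e-05) and that of Mylk -0.67 (adjusted p = 0.000122). With all 8 libraries the count of 2 fell to 1 without 3-month replicate 2 and to 0 without 3-month replicate 1, 3 or 4. Scaling by library size alone moved the median of all genes to -0.38 and left 0 of the 10 genes called. Markers of other cells moved with age in this region. Fibroblast genes summed to 2912 to 3977 CPM at 3 and 1624 to 1850.0 CPM at 21 months (3 of 10 called lower), and adipocyte genes to 969.9 to 1366 and 289 to 803 CPM (5 of 10 called lower). Macrophage genes had sums of 321 to 342 CPM in young and 430.1 to 554 CPM in aged libraries, and T cell genes of 5.93 to 7.88 and 15.7 to 18.5 CPM (5 of 10 called higher on each list). Gm42418 took 1.27 to 3.29% of the counts at 3 and 4.93 to 22.2% at 21 months. Their part in the result was not tested.

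In the testis 1 of the 10 genes was called. Myh11 fell from 31.8, 42.2, 41.9 and 33.7 to 23.2, 25.2, 25.2 and 28.6 CPM, without overlap (log2 difference -0.55, standard error 0.09, adjusted p = 0.00277), where 0.21% of the 30031 genes were called lower and 0.353% higher. No gene was called higher (0 of 10 also by DESeq2, and 1 of 10 at an unadjusted p under 0.05, Synpo2 with log2 difference 0.45, standard error 0.18, adjusted p = 0.335). Actg2, the most abundant of the 10 per length in this organ, had 203, 215, 198 and 193 CPM at 3 and 196, 185, 187 and 201 CPM at 21 months (log2 difference -0.07, standard error 0.05, adjusted p = 0.684). Fibroblast genes summed to 124 to 149.9 CPM at 3 and 105 to 120.2 CPM at 21 months, with the collagens Col1a1, Col1a2 and Col3a1 called lower (3 of 10). Pericyte genes summed to 47.8 to 56.2 and 62.3 to 72.4 CPM (1 of 10 called higher). Neither pair of sums overlapped between the ages, and their part in the result was not tested.

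Whether the effect of age differed between regions was tested in one fit of all 56 libraries. It did for all 10 genes (F-test with 6 degrees of freedom, adjusted p from 2.58e-05 for Acta2 to 0.0189 for Mylk), while 20.2% of the 36977 genes passed. With library size alone, 4 of 10 passed. In 6 of 10 genes the difference in the vas deferens was greater than the mean of the other 6 regions, against 6.51% of all genes, led by Myh11 (by 1.05 on the log2 scale, standard error 0.16, adjusted p = 7.18e-06). The efferent ductules were above the others in 4 genes, Acta2, Actg2, Cnn1 and Des (1.43% of all genes), the caput below in 3 (3.02%), Myh11, Smtn and Lmod1, and the cauda below in 2 (1.73%), Actg2 and Des. For Actg2 the excess of the efferent ductules rests on aged replicates 2 and 3, without which its age difference there was 0.07 in place of 2.18. Set directly against the cauda, a contrast chosen after the age differences were seen, the vas deferens had the greater difference in Acta2, Myh11, Cnn1, Tagln, Smtn and Des, 6 of 10 genes against 5.5% of all genes. The age difference of Acta2, which was called in the vas deferens and not in the cauda, was greater in the former by 1.27 on the log2 scale (standard error 0.22, adjusted p = 0.000155), and the ratio of its vas deferens mean to its cauda mean was 1.35 at 3 and 3.26 at 21 months.

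Of 20 partners in the filament and dense body, 9 fell in the caput (median log2 difference -0.48), where 5.05% of all genes were called lower. In the initial segment 7 fell (median -0.30, 3.01% of all genes), in the vas deferens 7 rose (median 0.18, 11.4% of all genes), and in the corpus 3 fell and 1 rose (1.47% and 1.5% of all genes). In the cauda edgeR called 0 of them, with a median of -0.48 (14 lower and 0 higher at an unadjusted p under 0.05, and by DESeq2 3 lower and 0 higher). It also called 0 in the efferent ductules (2 lower and 3 higher at an unadjusted p under 0.05, and by DESeq2 2 lower and 2 higher) and in the testis (4 lower and 0 higher at an unadjusted p under 0.05, and by DESeq2 0 lower and 0 higher). In the caput Tpm2 had 58.5 ± 22.3 CPM in young and 22.7 ± 2.39 CPM in aged mice (log2 difference -1.45, standard error 0.25, adjusted p = 0.00608). Its level in the vas deferens was 585 ± 21.4 CPM in young and 973 ± 231 CPM in aged mice (log2 difference 0.66, standard error 0.13, adjusted p = 0.0053). Tgfb1i1, an SRF-linked adaptor of focal adhesions, fell in the caput (-0.98) and in the initial segment (-0.61). Pgm5, a dense body component, fell in the initial segment (-0.82) and corpus (-0.64).

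Among the 7 transcriptional regulators, 2 fell in the caput, against 5.05% of all genes, and 3 rose in the vas deferens, against 11.4%. Myocd had 16.3, 18.1, 21.3 and 15.0 CPM in the young and 10.03, 8.98, 10.1 and 9.93 CPM in the aged caput (log2 difference -0.91, standard error 0.15, adjusted p = 0.00388). For Srf the caput held 39.8 ± 6.53 CPM in young and 25.3 ± 2.13 CPM in aged mice (log2 difference -0.71, standard error 0.12, adjusted p = 0.00431). The vas deferens held 50.3 ± 2.67 CPM in young and 75.3 ± 8.10 CPM in aged mice (log2 difference 0.52, standard error 0.09, adjusted p = 0.00358) of it. There Mrtfa, another SRF cofactor, also rose (0.40), as did Klf4 (0.88), a factor known to oppose myocardin in cultured smooth muscle. Myocd itself had 204, 198, 206 and 103 CPM in the aged vas deferens and was not called.

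Of 19 genes of calcium handling and relaxation, 4 fell in the corpus, against 1.47% of all genes. In the vas deferens 3 fell (8.47% of all genes), in the initial segment 1 (3.01%), and the caput and efferent ductules had 2 lower genes each (5.05% and 2.98%), while Jph2 alone rose, in the efferent ductules, where 4% of all genes did. Pde5a, the phosphodiesterase that ends relaxation by nitric oxide, fell in the efferent ductules (-0.68), initial segment (-0.43) and corpus (-0.58). Of 11 receptors, 1 was called lower in each of the caput, corpus, cauda and vas deferens (5.05%, 1.47%, 0.0583% and 8.47% of all genes), and 1 was called higher in the efferent ductules, 2 in the corpus and 1 in the vas deferens (4%, 1.5% and 11.4% of all genes). The endothelin receptor Ednra fell in 4 regions, the caput (-0.60), corpus (-0.77), cauda (-1.27) and vas deferens (-0.53). In the cauda it had 20.6, 24.8, 29.6 and 24.0 CPM at 3 and 10.6, 10.4, 10.9 and 9.08 CPM at 21 months, without overlap, in a region where few genes were called (adjusted p = 0.03). Oxtr rose in the efferent ductules (1.10), corpus (1.03) and vas deferens (1.13), and Agtr1a, an angiotensin receptor, rose in the corpus (1.53).

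Vessels also hold muscle cells, so markers of pericytes and endothelium were set beside the 10 genes. In the vas deferens, where members rose, 10 pericyte genes summed to 511 to 539.5 CPM at 3 and 374 to 562 CPM at 21 months (2 called lower, 0 higher), and 10 endothelial genes to 208 to 242 and 139 to 207 CPM (4 called lower, 0 higher), against 8.47% of all genes lower. In the caput the pericyte sums were 153 to 274 and 188 to 216 CPM and the endothelial sums 97.7 to 134 and 87.9 to 122 CPM, with 1 gene of each list called lower (5.05% of all genes). In the initial segment the pericyte sums were 199 to 278 and 137 to 165 CPM and the endothelial sums 245 to 342 and 199.8 to 227 CPM, without overlap, with 2 genes of each list called lower (3.01% of all genes). The efferent ductules had pericyte sums of 255 to 282 and 170.1 to 273 CPM, where Cox4i2 and Ndufa4l2 were called higher and Rgs5 lower, and endothelial sums of 361 to 401 and 266 to 377 CPM, with 0 called (1 lower and 0 higher at an unadjusted p under 0.05 and by DESeq2). Of all genes 4% were called higher and 2.98% lower there. In the cauda the pericyte sums were 243 to 318 and 114 to 198 CPM and the endothelial sums 138 to 247 and 90.0 to 123 CPM, both without overlap between the ages. There edgeR called 0 genes of either list, DESeq2 called 4 and 1 lower, and 6 and 5 were lower at an unadjusted p under 0.05. No gene of either list was at 0 in a whole group. Across regions at 3 months, the pericyte sum was lowest in the testis, at 47.8 to 56.2 CPM, and highest in the vas deferens, at 511 to 539.5 CPM, as Myh11 was. In the other 5 regions it lay between 153 and 318 CPM. Only 2 of the 10 pericyte genes, Abcc9 and Mcam, were higher in the vas deferens than in every other region, against 4.32% of all genes. Rgs5 had 76.0 ± 16.2 CPM in the initial segment and 50.2 ± 7.13 CPM in the vas deferens. The endothelial sum was also lowest in the testis, at 31.0 to 40.1 CPM, but it was highest in the efferent ductules, at 361 to 401 CPM. The part of vessels in the levels of the 10 genes was not tested.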

How the data were processed

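RNA-seq libraries of 7 regions of the reproductive tract of C57BL/6 male mice of 3 and 21 months (4 libraries per group, 56 in all) were used. According to the study's methods, the authors made stranded total RNA libraries, sequenced paired ends of 150 bases and aligned them to GRCm38 with HISAT2. The submitters' processing notes also name mm10, cutadapt and HTSeq, without their roles. Tool versions, the annotation release and the strand setting of the counting are not given in the sources used here. The deposited table holds whole-number read counts, not normalized, for 53379 genes. GENCODE M21 gave gene positions, exon lengths and transcripts.

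Counts were tested with edgeR 4.0.16 in R 4.3.3 (quasi-likelihood F-test, TMM scaling, genes with at least 10 counts in all, Benjamini-Hochberg over all genes, threshold 0.05), in one fit per region for age, one per age for the 21 pairs of regions and one of 14 groups for their interaction. The exact permutation test of the actin share was two-sided. The scripts were tested on simulated data: in the vas deferens 38% of genes changed 1.5-fold and 92% of those changed 2-fold were recovered among 24641 genes. Each mouse gave all 7 regions, but no source says which replicate number is which mouse. Same-numbered libraries of the 2 ages correlated above 0.1 in their deviations from group means in 3 of 28 cases, and those of different regions in 21 of 168, so the numbers were not taken as pairs. P-values measure the spread between these libraries. DESeq2 1.42.0, other scalings and filters, a replicate block and leaving out libraries were the alternatives.

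All 10 genes were named throughout. Of other lists the counts called are given, with up to 3 called genes of largest change per list and region, and 5 genes most like Myh11 and Actg2. The genes, lists and contrasts were chosen with earlier results of these data known.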

Additional observations from a re-analysis of the deposited data

Results flagged for a closer look

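Synpo2 in the vas deferens at 3 months had 1 library, replicate 2 with 1259 CPM, that stood apart from the other 3, at 1492 to 1520.4 CPM. It was the only one of 140 groups of 4 libraries (10 genes in 14 groups) in which the gap to the nearest library passed Dixon's 95% critical value, and chance alone flags about 1 group in 20.

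All 10 genes had an age difference that was not the same in the 7 regions, by the edgeR quasi-likelihood F-test of the interaction over 56 libraries with Benjamini-Hochberg adjustment. Among the filament genes the adjusted p was 2.58e-05 for Acta2, 4.16e-05 for Myh11 and 0.000203 for Actg2. It was 0.0189 for Mylk, the kinase. For the actin binding proteins it was 0.000223 for Tagln, 0.0011 for Cnn1, 0.00323 for Smtn and 0.0044 for Lmod1. The anchoring proteins had 0.000885 for Des and 0.00979 for Synpo2. The lowest of the 7 log2 differences was -0.69 and the highest 0.50 for Acta2, in the cauda and vas deferens. Mylk ran from -0.39 in the cauda to 0.40 in the corpus.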

How the results depend on the processing

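All counts between regions and the 4 Actg2 contrasts of the initial segment kept their direction and stayed within the limits set for an unchanged result under every alternative run, and no result was reversed. Counts of genes with an age difference moved more, and beyond what each alternative's construction shows, the cause was not tested. The share of all genes called under each alternative is not given beside these counts. Library size alone gave 0 higher in the efferent ductules, 0 lower in the caput, 0 higher and 2 lower in the corpus, 2 higher in the vas deferens and 4 genes with an interaction. One fit of all 56 libraries gave 0 lower in the testis, 4 in the initial segment, 4 in the caput, 0 higher and 0 lower in the corpus, 6 lower in the cauda and 3 higher in the vas deferens. An unadjusted p under 0.05 with a 1.5-fold change gave 0 lower in the testis, 0 in the initial segment, 4 in the caput, 0 higher in the corpus, 5 lower in the cauda and 0 higher in the vas deferens. Without a filter the lower counts were 2 in the testis, 6 in the initial segment, 5 in the corpus and, for the cauda, 1, and with filterByExpr 1 in the initial segment. DESeq2 called 2 genes lower in the corpus and 3 lower in the cauda. The replicate block gave 1 higher in the efferent ductules, 1 lower in the initial segment, 3 lower in the corpus and 3 higher in the vas deferens.

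Leaving out 1 library at a time gave 0 to 3 higher genes in the efferent ductules, 0 to 4 lower in the initial segment, 3 to 9 lower in the caput, 0 to 1 higher and 0 to 1 lower in the corpus and 2 to 9 higher in the vas deferens. Without all libraries of 1 replicate number, 7 to 10 genes had an interaction. Leaving out 21-month replicates 2 and 3 gave 4 higher and 2 lower genes in the efferent ductules, and leaving out 3-month replicate 3 and 21-month replicate 2, a pair picked with their low levels of these genes known, gave 9 lower in the cauda. Of the 20 calls of single genes in a region, 14 were lost with library size alone, 10 in one fit of all libraries, 4 with the replicate block and 0 with DESeq2. For the interaction DESeq2's likelihood ratio test was run in place of its Wald test. With 4 libraries a group, 38% of the 1.5-fold changes simulated in the vas deferens were recovered, so changes of that size can be missed.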
